A study of Rattus norvegicus with 4 samples.

Results

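The mitochondrial protein import machinery was examined here in S16 cells, a rat Schwann cell line, by RNA-seq of polyadenylated RNA. Its members were chosen by name: protein-coding genes whose symbol begins with Timm or Tomm and a number, together with Pam16, Dnajc19, Dnajc15, Grpel1, Grpel2, Hspa9, Samm50, Mtx1, Mtx2, Chchd4, Gfer, Pmpca and Pmpcb. The group was proposed because of the low counts of Timm17b in the siRNA libraries, so that value is described here without a test. The names gave 38 entries with 35 distinct symbols, of 32545 genes in the count table, 22293 of them protein-coding. Of the 38 entries, 33 had enough reads to be tested and 5 did not.

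The study compared 2 groups of 2 libraries each. Control cells were transfected with a control siRNA (IDT DS NC1), and the other cells with siRNAs against both Nr2f1 and Nr2f2, the genes of the orphan receptors COUP-TFI (Nr2f1) and COUP-TFII (Nr2f2). No time after transfection is given in the sources used here. All libraries came from the same cell line, grown in 6-well plates, and the labels do not say that they came from separate cultures, so the spread behind every p-value is that between libraries and may be technical. The letters A and B name a group's libraries as their columns follow each other in the deposited tables.

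Counts assigned to genes ranged from 21556011 to 43057750 per library, and the deepest was siRNA library B. Nr2f1 was at 226 and 208 CPM (read counts scaled to a common library size, with the TMM factor) in the controls, library A before B here and below, against 61.5 and 56.0 CPM in the siRNA libraries. Nr2f2 was at 296 and 282 CPM against 68.1 and 72.7 CPM. Of 13 Schwann cell markers in the table, 11 were at or above 1 CPM in every library, with a summed level of 15000 to 15400 CPM in the control and 16600 to 17200 CPM in the siRNA libraries, and Gap43 was listed at 0. Of 7 fibroblast markers 5 were at or above 1 CPM in every library (14800 to 14900 CPM against 13900 to 14400 CPM), with Dcn and Lum at 0. Most of that sum was Col1a1 (11500 to 12000 CPM), and single markers differed: Pdgfrb fell (log2 fold change -1.40, adjusted p = 2.56e-07), while Col1a2 (-0.91, adjusted p = 0.460) and Pdgfra (0.88, adjusted p = 0.0505) did not pass. Among the other markers listed, the Schwann cell gene Pmp22 (0.32, adjusted p = 0.00552), the endothelial gene Vwf (0.69, adjusted p = 0.00762) and the neuron gene Tubb3 (0.31, adjusted p = 0.0421) were higher and no other passed. The part of these differences in the results below was not tested. The macrophage markers Ptprc, Adgre1 and C1qa, the endothelial markers Cdh5 and Kdr, and the neuron marker Rbfox3 were also at 0. The summed level of the 7 neuron markers was 79.1 to 83.2 CPM in the control and 90.6 to 109 CPM in the siRNA libraries. Most of it was Tubb3 (76.7 and 80.2 against 106 and 88.5 CPM), alone at or above 1 CPM in every library. The sum was 13.1 to 13.5 against 15.5 to 17.2 CPM for 4 endothelial markers and 1.55 to 1.83 against 1.65 to 1.67 CPM for 7 macrophage markers. Within the endothelial sum Vwf rose (7.85 and 7.36 against 11.8 and 12.7 CPM) while Tek was lower (5.26 and 6.10 against 3.68 and 4.48 CPM).

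Nearly all mitochondrial proteins are encoded in the nucleus, made in the cytosol and imported. Precursors are bound by receptors and pass the outer membrane through the TOM complex. From there the TIM23 translocase, driven by a chaperone motor, takes proteins with a cleavable presequence into the matrix or the inner membrane, the small Tim chaperones and TIM22 carry multispanning proteins to the inner membrane, a disulfide relay traps cysteine-rich proteins in the intermembrane space, and the SAM complex inserts barrel proteins into the outer membrane. Schwann cells depend on mitochondria to support the axons that they ensheathe.

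Promoters are shown for Timm17b, for its paralog Timm17a, and for Chchd4 and Tomm20, which were lower in the siRNA libraries by the test below. Each runs from 250 bases before to 50 bases after the transcription start given by RefSeq on GRCr8, 5′ to 3′ on the gene's strand, 300 bases in all. Capitals mark matches on either strand to the NRF-1 core CGCATGCG, the ETS/GABP motif CCGGAAGT, the nuclear receptor half-site AGGTCA or the CCAAT box.
Timm17b (chrX:17275291-17275590, minus strand): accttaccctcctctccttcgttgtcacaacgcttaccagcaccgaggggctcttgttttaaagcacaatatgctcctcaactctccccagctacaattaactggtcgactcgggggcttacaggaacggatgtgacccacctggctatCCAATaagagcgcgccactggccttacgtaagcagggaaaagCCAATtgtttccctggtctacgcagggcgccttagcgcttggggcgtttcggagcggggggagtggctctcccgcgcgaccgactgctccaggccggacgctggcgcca
Timm17a (chr13:49294355-49294654, minus strand): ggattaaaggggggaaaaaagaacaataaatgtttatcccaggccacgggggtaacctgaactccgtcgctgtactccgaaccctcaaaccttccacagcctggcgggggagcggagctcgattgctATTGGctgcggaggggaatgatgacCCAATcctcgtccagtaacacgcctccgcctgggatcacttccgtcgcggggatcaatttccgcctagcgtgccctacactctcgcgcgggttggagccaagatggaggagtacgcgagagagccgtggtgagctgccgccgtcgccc
Chchd4 (chr4:125534513-125534812, minus strand): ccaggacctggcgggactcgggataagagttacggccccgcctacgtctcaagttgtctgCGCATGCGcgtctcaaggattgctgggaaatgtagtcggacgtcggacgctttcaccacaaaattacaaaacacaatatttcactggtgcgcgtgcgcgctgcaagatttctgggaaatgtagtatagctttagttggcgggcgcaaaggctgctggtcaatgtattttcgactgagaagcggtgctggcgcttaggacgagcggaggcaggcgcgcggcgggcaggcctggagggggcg
Tomm20 (chr19:71832371-71832670, minus strand): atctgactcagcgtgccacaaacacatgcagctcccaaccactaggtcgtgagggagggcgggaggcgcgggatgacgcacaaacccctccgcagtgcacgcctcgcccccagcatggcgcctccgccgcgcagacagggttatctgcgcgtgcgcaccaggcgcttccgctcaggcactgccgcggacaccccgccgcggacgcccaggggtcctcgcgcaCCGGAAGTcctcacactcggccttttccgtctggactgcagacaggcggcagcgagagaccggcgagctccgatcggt

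The Timm17b window held 2 CCAAT boxes, beginning 101 and 59 bases before the start, and the Timm17a window held 2, at 98 and 123 bases before it. In the Chchd4 window the NRF-1 core began 190 bases before the start, and in the Tomm20 window the ETS/GABP motif began 28 bases before it. None of these 4 windows held the letters of the half-site, to which nuclear receptors such as the COUP-TFs bind. RefSeq promoters were found for 33 of the 35 symbols, not for Dnajc15 and Tomm34. The ETS/GABP motif was in 8 of the 33 (24.2%) and in 3.81% of all 33469 rat promoters of the same length. The NRF-1 core was in 3 (9.09%, against 1.66%), those of Chchd4, Grpel1 and Tomm7. The half-site was in 6 (18.2%, against 16.2%), and among members that passed the test below it was in Tomm70 (Tomm70a in the count table) alone. The CCAAT box was in 12 (36.4%, against 37.5%), and no match overlapped a match of another motif. A match is a description of the letters and not evidence of binding.

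Timm17b encodes one of the paralogous Tim17 subunits that form part of the TIM23 channel. Its level was 8.04 CPM in control library A, 16.8 CPM in control library B, and 0.422 and 0.411 CPM in the siRNA libraries. Both siRNA libraries were far below both controls, and control library B was well above control library A. The fitted log2 fold change (siRNA over control) was -4.86 (SE 0.65, n = 2 libraries per group), and it was -4.27 without control library B and -5.33 without control library A. It rested on 208 and 358 counts in the control libraries against 11 and 18 in the siRNA libraries. The rate in the siRNA group was 3.46% of the control rate, with a 95% exact interval of 2.30% to 5.03% that covers counting error only. The authors' deposited table gives a log2 fold change of -4.90.

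In the deposited files Timm17b lies on the minus strand of X:15340839-15347591, a span of 6753 bases with an exon length of 519 bases. A second entry on the same strand, LOC100911130 (X:15441651-15448403), which the files describe as Tim17-B-like, has the same span and the same exon length and starts 100812 bases further on. That entry had 0 counts in both control libraries and 1 and 0 in the siRNA libraries. The sources used here do not say how reads that match both entries were counted, and the values of Timm17b are uncertain to that extent. The next gene on one side, Pqbp1, begins on the plus strand 546 bases away and was at 18.7 and 19.8 CPM in the controls and 19.5 and 17.2 CPM in the siRNA libraries (log2 fold change -0.08, SE 0.12, adjusted p = 0.716). The groups overlapped for Pqbp1. The next one to start on that side, LOC100911167, had no count in any library. It lies within the annotated span of Pqbp1 (X:15348138-15453130), as does the Tim17-B-like entry LOC100911130. On the other side Eras had no count and Pcsk1n had 1, in siRNA library A.

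Timm17a, the other Tim17 paralog, on chromosome 13, was at 69.6 and 76.2 CPM in the controls and 59.4 and 53.8 CPM in the siRNA libraries. Both siRNA libraries lay below both controls. The log2 fold change was -0.37 (SE 0.09, adjusted p = 0.0151 by edgeR's quasi-likelihood test, adjusted by the Benjamini-Hochberg method over 13018 genes). The call was lost without control library B (adjusted p = 0.0796) and, likewise, when siRNA library B was left out (0.142). Levels of different genes can be set side by side per transcript length, as the authors' deposited FPKM. On that scale Timm17a was 4.95 and 2.60 times as high as Timm17b in the controls, and 80.9 and 75.1 times as high in the siRNA libraries. The summed FPKM of the 2 paralogs was 91.7 and 115 in the controls and 65.7 and 59.5 in the siRNA libraries. These ratios and sums contain Timm17b, from whose fall the group was proposed, and its siRNA values rest on 11 and 18 counts. Timm17a was not higher in the libraries where Timm17b was low.

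Leaving out Timm17b, 32 members were tested at an adjusted p threshold of 0.05. Of these, 7 were lower in the siRNA libraries, 0 were higher and 25 did not pass. Both entries named Chchd4, on chromosomes 1 and 4, are among the 7, and reads could be shared between them. Among all tested genes 18.1% passed in either direction, 8.05% higher and 10.0% lower, and 21.9% of the 32 members were lower. Before adjustment, 8 members had p under 0.05 with a lower level and 1, Gfer, with a higher one. Of all 13018 tested genes, 2109 were lower and 1978 higher at that unadjusted threshold. Gfer also passed the adjusted threshold with scaling by library size alone (adjusted p = 0.0426). The median log2 fold change was -0.13 over the 32 members and 0.01 over all tested genes. It was below 0 in 25 members and above 0 in 7, while 49.0% of all genes were below 0. Both siRNA libraries lay on one side of both controls for 18 members (56.2%), against 58.6% of all tested genes. With any 1 library left out, fewer members were called lower, and a smaller share of all tested genes was called too. The median log2 fold change of the 32 members then ranged from -0.205 (without siRNA library A) to -0.083 (without control library B). The members were listed with earlier results of these data known, so the counts are a description only.

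**Figure D1:**
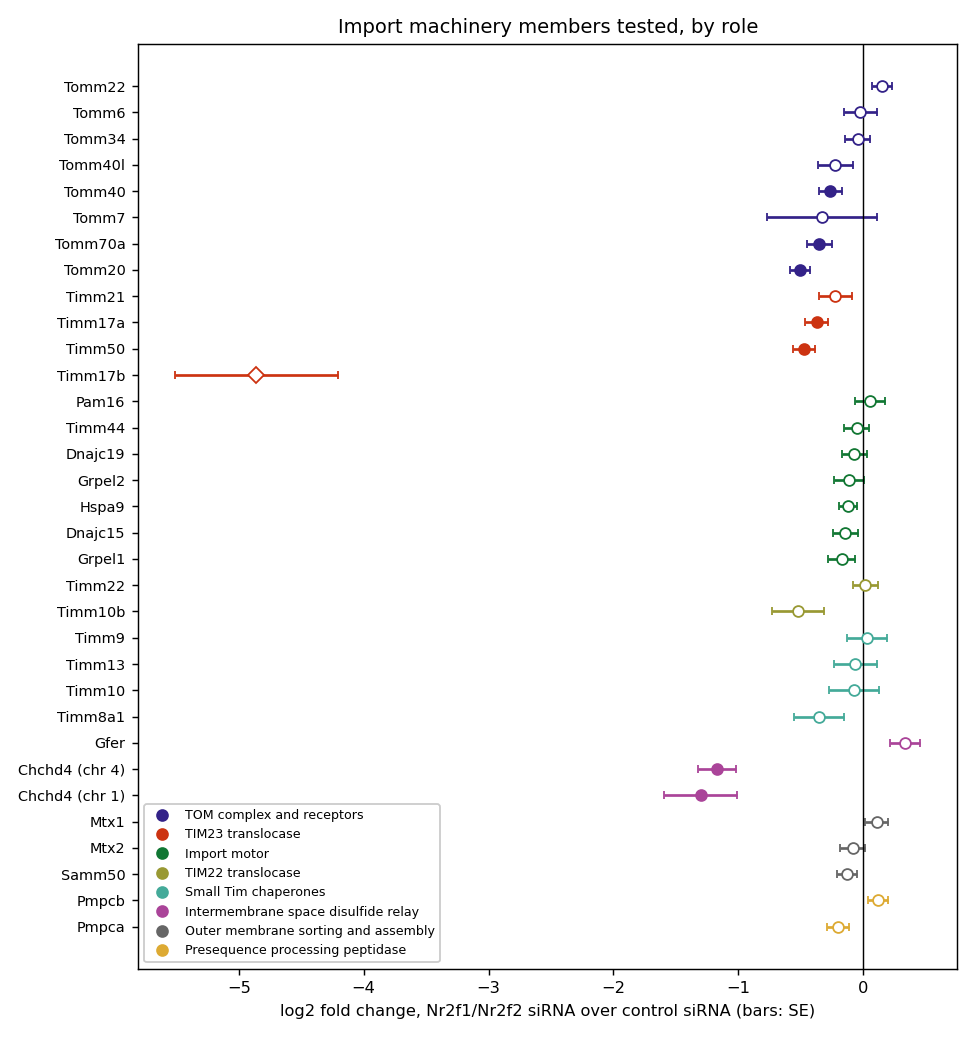
Log2 fold change of the 33 tested members, Nr2f1/Nr2f2 siRNA over control siRNA, ordered by role, with SE bars (n = 2 libraries per group). Filled circles have an adjusted p below 0.05. Timm17b, from whose fall the group was proposed, is drawn as an open diamond, with no test, at -4.86, the Chchd4 entries are at -1.17 and -1.30, and the other members lie between -0.52 and 0.34.

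Genes with more reads were more often called lower. Of all genes up to 10 CPM 3.32% were lower, of those above 10 and up to 100 CPM 11.2%, and of those above 100 CPM 18.8%. The 32 members fell into these ranges as 5, 24 and 3 genes, with 1, 5 and 1 of them lower.

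**Figure D2:**
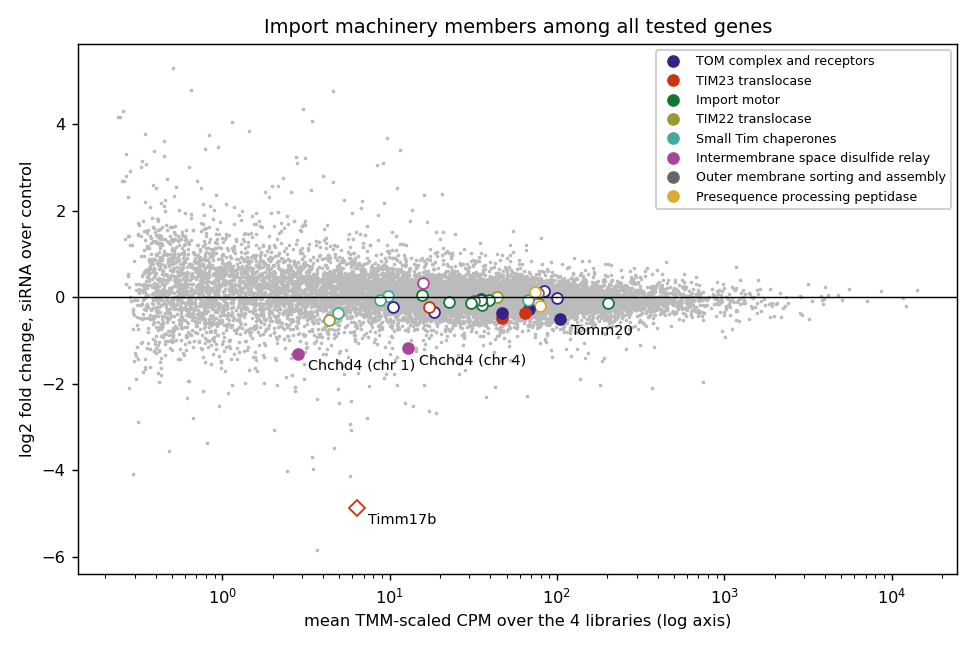
Log2 fold change (siRNA over control) against the mean TMM-scaled CPM over the 4 libraries (log axis) for all 13018 tested genes (grey) and the members (coloured by role, filled where the adjusted p is below 0.05, with Timm17b as an open diamond and no test). Most members lie between 10 and 100 CPM close to 0, and Timm17b and the Chchd4 entries lie below the main cloud.

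Among the tested members the largest fold changes after that of Timm17b were in the disulfide relay. Chchd4 encodes the oxidoreductase, known as Mia40 in yeast, that oxidises cysteine-rich proteins as they enter the intermembrane space. Its entry on chromosome 4 was at 17.7 and 17.8 CPM in the controls and 8.97 and 7.04 CPM in the siRNA libraries. The groups were well apart, and the log2 fold change was -1.17 (SE 0.15, adjusted p = 0.000242). Its 837 control counts against 542 siRNA counts gave a rate of 43.7% of the control (95% exact interval 39.2% to 48.8%, counting error only).

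A second entry named Chchd4, on chromosome 1 (1:248402980-248403399 in the deposited files), has a length of 420 bases equal to its span. It was at 4.79 and 3.28 CPM in the controls and 1.30 and 1.90 CPM in the siRNA libraries (log2 fold change -1.30, SE 0.29, adjusted p = 0.0089). Both siRNA libraries were below both controls. Without control library A this call was lost (adjusted p = 0.124). Reads could be shared between the 2 entries, and their separate values are uncertain. With the counts of both entries summed, a setting chosen after seeing the data, the log2 fold change was -1.20 (adjusted p = 8.6e-05). Gfer, the sulfhydryl oxidase that reoxidises the Chchd4 protein, was at 13.9 and 14.0 CPM in the controls and 17.9 and 17.5 CPM in the siRNA libraries. Both siRNA libraries lay above both controls, but the log2 fold change of 0.34 (SE 0.12) did not pass (adjusted p = 0.0735).

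In the outer membrane, 3 of 8 tested TOM members were lower, where 10.0% of all tested genes were, and the calls of Tomm70a and Tomm40 among them did not hold in every alternative. Tomm20, a receptor for presequences, was at 126 and 120 CPM in the controls and 83.7 and 90.8 CPM in the siRNA libraries. The groups did not overlap, and the log2 fold change was -0.50 (SE 0.08, adjusted p = 0.00133). Tomm20 overlaps the small nucleolar RNA gene SNORA14 on the same strand, which had 48 counts over all libraries. Tomm70a, a receptor for carrier proteins and other precursors with internal signals, was at 53.0 and 52.4 CPM against 37.9 and 44.1 CPM. Here too the siRNA libraries were the lower ones, at a log2 fold change of -0.35 (SE 0.10) and an adjusted p of 0.0252. It did not pass with control library A left out (adjusted p = 0.0920), nor with control library B (0.0559) or siRNA library A (0.189) left out.

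Tomm40, the barrel that forms the channel, was at 73.0 and 75.7 CPM in the controls and 64.1 and 59.8 CPM in the siRNA libraries. Its groups were apart by little, and its log2 fold change was -0.26 (SE 0.09, adjusted p = 0.0482). The authors' deposited table gives it an adjusted p of 0.0555, and the call was lost whichever library was left out (adjusted p = 0.0869 to 0.309). The other receptor, Tomm22, was at 75.7 and 82.2 CPM in the controls and 87.9 and 87.4 CPM in the siRNA libraries. Both siRNA libraries were above the controls, and the log2 fold change of 0.15 (SE 0.08) did not pass (adjusted p = 0.239).

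**Figure D3:**
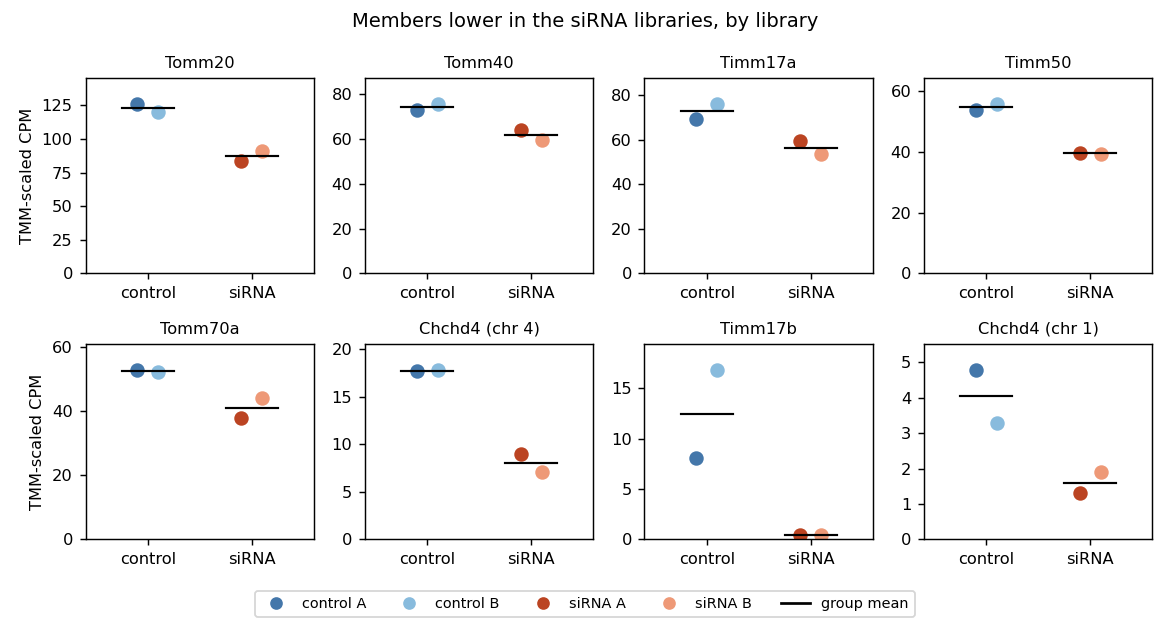
TMM-scaled CPM in each library (points) and group means (lines) for the 7 members other than Timm17b with an adjusted p below 0.05, and for Timm17b, with every axis starting at 0. In each panel both siRNA libraries lie below both controls, and the control libraries lie farthest apart, relative to their level, for Timm17b (8.04 and 16.8 CPM) and for the Chchd4 entry on chromosome 1 (4.79 and 3.28 CPM).

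The remaining TOM members did not pass. Tomm6, a small subunit that stabilises the complex, was the most abundant member per length, at 406 and 481 FPKM in the controls and 489 and 384 FPKM in the siRNA libraries. Its groups overlapped (log2 fold change -0.02, SE 0.13, adjusted p = 0.933). Tomm7, another small subunit, was at 14.5 and 26.3 CPM in the controls and 19.3 and 13.2 CPM in the siRNA libraries. It had the widest error of these members (log2 fold change -0.33, SE 0.44, adjusted p = 0.693). Tomm40l, a paralog of the channel, was at -0.22 (SE 0.14) on the log2 scale, and the cytosolic cochaperone Tomm34 at -0.04 (SE 0.10). Tomm20l had 7 and 3 counts in the controls and 2 and 6 in the siRNA libraries and was not tested.

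In the TIM23 translocase, Timm50, the receptor that takes over precursors from TOM, was at 53.8 and 55.7 CPM in the controls and 39.7 and 39.3 CPM in the siRNA libraries. The libraries of each group were close together and the groups apart, and the log2 fold change was -0.47 (SE 0.09, adjusted p = 0.00315). With Timm17a, 2 of the 3 tested TIM23 members other than Timm17b were lower, where 10.0% of all tested genes were, and the call of Timm17a was lost in the 2 settings given above. Timm21, which links TIM23 to the TOM complex in yeast, was at 19.6 and 17.6 CPM against 14.7 and 17.1 CPM. Both siRNA libraries were below both controls, but the change of -0.22 (SE 0.13) did not pass (adjusted p = 0.280). The symbols Timm23, Timm29 and Tomm5 match no entry and were not analysed here. An entry outside the naming rule that the files describe as Tim23-like, LOC100362432 (chromosome 16), singled out after its values were seen, was at 66.5 and 74.0 CPM in the controls and 58.1 and 58.3 CPM in the siRNA libraries (log2 fold change -0.27, SE 0.09, adjusted p = 0.0522). Timm23b fits the name pattern but is annotated as a processed pseudogene and was left out.

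None of the 7 members of the import motor passed the test, where 18.1% of all tested genes passed in either direction. Their log2 fold changes ran from -0.17 to 0.06. With so few members in a role, a count of 0 is a description only. Hspa9, the matrix Hsp70 (mortalin) that pulls precursors inward, was at 217 and 207 CPM in the controls and 192 and 197 CPM in the siRNA libraries. The siRNA libraries lay below the controls, but the difference did not pass (log2 fold change -0.12, SE 0.07, adjusted p = 0.285). Its nucleotide exchange factors Grpel1 and Grpel2 were at -0.17 (SE 0.11) and -0.11 (SE 0.12). The J-domain cochaperones Dnajc15 and Dnajc19 were at -0.14 (SE 0.10) and -0.07 (SE 0.10). Timm44, which tethers the motor to the channel, was at -0.05 (SE 0.10), and Pam16 at 0.06 (SE 0.12). Dnajc19 overlaps Fxr1 on the other strand. The sources used here do not say whether counting used strand, and the same limit holds for every member that overlaps a gene on the other strand, such as Pmpca with Sdccag3 and Timm8b with LOC100151767.

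The small Tim chaperones shield hydrophobic precursors in the intermembrane space. None of their 4 tested entries passed, where 18.1% of all tested genes did. Timm13 was among the 3 most abundant members per length, at 72.0 and 96.7 FPKM in the controls and 88.3 and 72.9 FPKM in the siRNA libraries, and Tomm20 was the other, at 128 and 121 against 84.3 and 91.4 FPKM. The Timm13 groups overlapped (log2 fold change -0.06, SE 0.17, adjusted p = 0.842). Timm10 was at 7.61 and 10.2 CPM against 9.85 and 7.38 CPM, also with overlap. Timm9 was at 0.03 (SE 0.16) on the log2 scale and the Timm8a1 entry on X at -0.35 (SE 0.20). The Timm8a1 entry on chromosome 8 had 3 or fewer counts in each library, as did Timm8a2 and Timm8b, and none of these was tested.

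For the other routes no tested member passed, where 18.1% of all tested genes did. In TIM22, which inserts carriers into the inner membrane, the channel gene Timm22 was at 0.02 (SE 0.10) on the log2 scale. The Timm10b entry on chromosome 1 was at -0.52 (SE 0.21, adjusted p = 0.115), and it overlaps Dnhd1 on the same strand, so reads may be shared. Its entry on chromosome 20 had no counts. In outer membrane sorting and assembly, the barrel insertase Samm50 was at -0.13 (SE 0.08), Mtx1 at 0.11 (SE 0.09) and Mtx2 at -0.08 (SE 0.10). The presequence processing peptidase subunits Pmpca and Pmpcb were at -0.20 (SE 0.09, adjusted p = 0.166) and 0.12 (SE 0.08, adjusted p = 0.339), with the siRNA libraries of Pmpca below and those of Pmpcb above both controls.

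**Figure D4:**
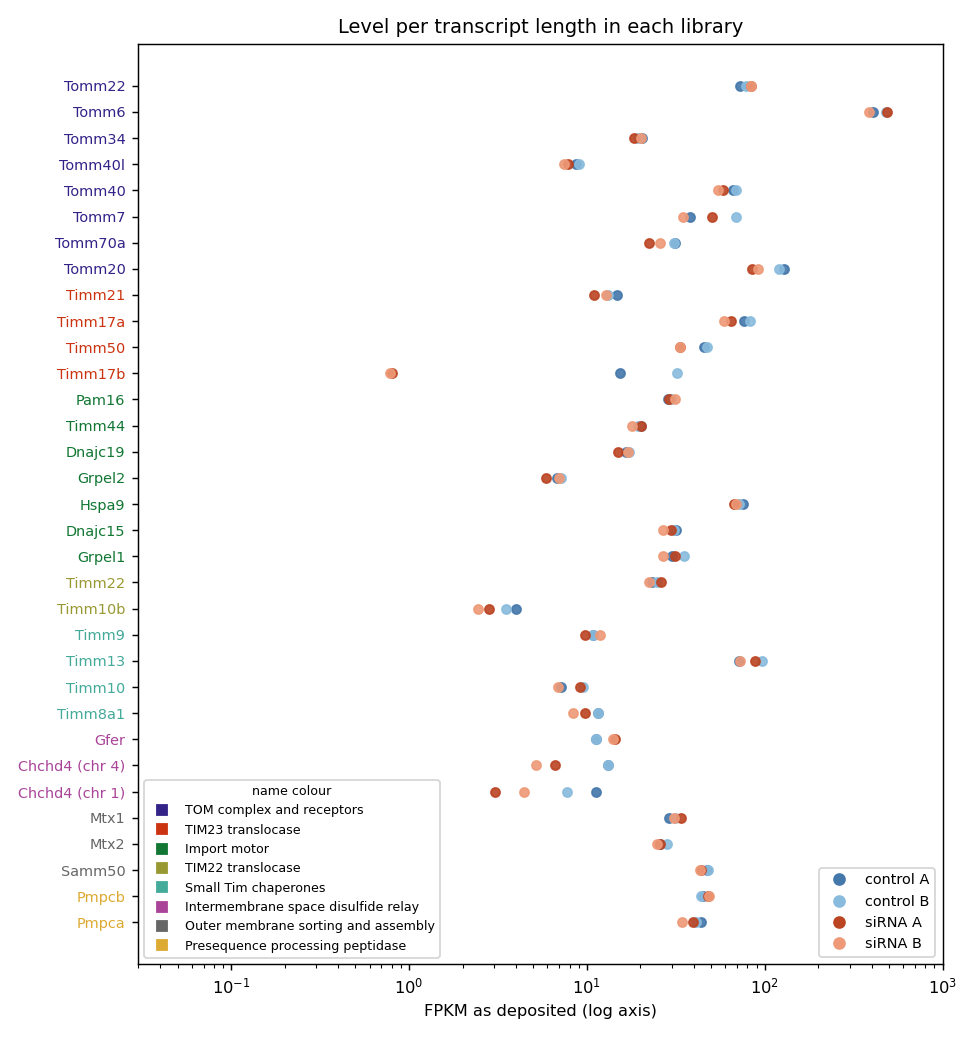
The authors' deposited FPKM of each tested member in each library (points, log axis), ordered by role. Most members lie between 5 and 100 FPKM with the 4 libraries close together. Tomm6 stands highest (384 to 489 FPKM), and Timm17b drops from 15.4 and 32.0 FPKM in the controls to 0.802 and 0.782 FPKM in the siRNA libraries.

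The order of the libraries within a group was often the same among members. For 17 of the 32 members (53.1%) control library B was above A while siRNA library A was above B. Examples are Tomm6, Tomm7, Timm10 and Timm13. Of these 17, 4 had passed the test, all with a lower level, where 10.0% of all tested genes were lower. For 8 of the 17 the groups overlapped. For the others both siRNA libraries lay on one side of both controls, which held for 58.6% of all tested genes. That order of libraries held in 30.5% of all tested genes. Its part in the results was not tested.

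Other genes of mitochondrial import, folding, cristae and content were taken from 4 lists made by function. Of these, 52 had an entry and 49 were tested, and 7 (14.3%) were lower and 0 higher, with a median log2 fold change of -0.12. Against that stood 10.0% lower and 8.05% higher among all tested genes. Before adjustment, p was under 0.05 for 16 with a lower level and for 0 with a higher one. At that unadjusted threshold 2109 of all 13018 tested genes were lower and 1978 higher. The 7 fell to 2 with scaling by library size alone or by the upper quartile, and to 4 with limma-voom, so the number called changed with the processing. With any 1 library left out, fewer of these genes were called lower, and a smaller share of all tested genes was called too. Such a run leaves 1 library in a group, so lost calls cannot be assigned to the library left out. The causes of these changes were not tested. In the lists, 1 of 8 MICOS and cristae genes was lower, 1 of 13 matrix chaperones and proteases, 3 of 14 genes of mitochondrial content and biogenesis and 2 of 14 further import and insertion factors.

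The cristae gene Chchd3 was lower, with a log2 fold change of -0.29 (SE 0.09) at an adjusted p of 0.0377. Hscb, a cochaperone of iron-sulfur cluster assembly, was at -0.55 (SE 0.17, adjusted p = 0.0393). Among content and biogenesis genes, the mitochondrial elongation factor Tufm was at -0.33 (SE 0.08, adjusted p = 0.0154), the outer membrane channel Vdac1 at -0.28 (SE 0.07, adjusted p = 0.0180) and the coactivator Pprc1 at -0.29 (SE 0.09, adjusted p = 0.0375). Cox19, an intermembrane space protein of copper delivery and a relay substrate in yeast, was at -0.35 (SE 0.11, adjusted p = 0.0413), and the outer membrane insertase Mtch2 at -0.25 (SE 0.08, adjusted p = 0.0496). The matrix chaperonin Hspd1 was at -0.21 (SE 0.07, adjusted p = 0.0566). The citrate synthase gene Cs, often used as a measure of mitochondrial content, was at 0.03 (SE 0.07), and Tfam, which packages mitochondrial DNA, at -0.04 (SE 0.10). In bulk RNA, fewer cells of a kind and less RNA per cell cannot be told apart.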

How the data were processed

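Polyadenylated RNA of S16 cells was measured in 4 libraries, and the labels put 2 in each group. Read counts per gene were deposited by the authors as whole numbers. The submitters' processing notes name HISAT2, featureCounts 1.5.0-p3 and DESeq2 1.20.0 without the role of each. The sources used here do not give the genome build, the annotation or the strand setting of counting, and coordinates of genes are those of the deposited files. FPKM values per library were deposited by the authors and used for levels per length. The log2 fold changes and p-values of the authors' deposited comparison were used where named. A further 10 columns of per-sample values were not used. Columns name the group, and their numbers differ from those in the sample titles.

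Totals were 26561522 (A) and 21556011 (B) counts for the controls and 25618234 (A) and 43057750 (B) counts for the siRNA libraries. The deposited counts were tested in R 4.3.3 with edgeR 4.0.16: filterByExpr (13018 genes kept), TMM, and the robust quasi-likelihood test on group, with Benjamini-Hochberg adjustment over all tested genes and a threshold of 0.05. The biological coefficient of variation was 0.111. SEs came from the F statistic. The method was run on simulated counts with 200 changed genes and the same spread for all genes. That run held no changes as small as those of most members called here. Ratios of summed counts have exact 95% intervals that cover counting error only. They leave out the spread between libraries, since counts were summed within each group. Reads carried no molecular identifiers. Alternatives used other scalings, DESeq2 1.42.0, limma-voom (limma 3.58.1), other filters and each library left out.

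The members and lists were chosen with earlier results of these data known. Named with values in every library are Timm17b, Timm17a, every member past the threshold and the 3 most abundant per length. Up to 4 called genes per companion list, the nearest genes to Timm17b and the siRNA targets are also named. Values of other members and companion genes named beside these were chosen after they were seen.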

Additional observations from a re-analysis of the deposited data

How the results depend on the processing

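The fold changes of the 7 members called in the test, Timm17b apart, kept their direction in each alternative run. The count of lower members without Timm17b (7) was 6 to 7 in the alternatives on all 4 libraries and 4 to 5 with 1 library left out. Members higher went from 0 to 1 (Gfer) with library-size scaling and were 0 to 0 with 1 library left out. The 7 lower companion genes became 2 with library-size scaling, 2 with upper-quartile scaling, 4 with limma-voom and 0 to 3 with 1 library left out. The log2 fold change of Timm17b ran from -5.33 to -4.27 with 1 library left out and from -4.90 to -4.71 otherwise. Tomm40 lost its call in 9 alternatives, among them library-size scaling (adjusted p = 0.104), upper-quartile scaling (0.0794), DESeq2 (0.0516), limma-voom (0.0562) and no filter on low counts (0.0565), while Timm50, Tomm20 and Chchd4 on chromosome 4 kept theirs in all alternatives run. The causes of these changes were not tested. The median log2 fold change of all genes was 0.007 with TMM, 0.059 with library-size scaling and 0.041 by the upper quartile. The earlier quasi-likelihood method of edgeR and the sum of both Chchd4 entries were chosen after seeing the data. No paired analysis was possible because the column numbers of the 2 groups share only the number 3. The values of Timm17b rest on 29 siRNA counts and on control libraries that differed (8.04 CPM in A and 16.8 CPM in B).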
